A study of Mus musculus with 12 samples.

Results

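The mitochondrial respiratory chain was followed through its nuclear-encoded genes in spheroids of mouse hepatocytes, compact aggregates that liver cells form when they are kept from attaching to a surface. Members were the genes whose symbol starts with Nduf, Uqcr, Atp5, Cox4, Cox5, Cox6, Cox7 or Cox8, with Sdha, Sdhb, Sdhc, Sdhd and Cyc1. This gave 90 of the 11861 genes measured, each read by 1 probe set. They were 36 genes of complex I, 4 of complex II, 9 of complex III, 16 of complex IV, 17 of complex V and 8 Ndufaf genes, which help to build complex I and stay outside the finished enzyme. Ndufa4 and Ndufa4l2 were counted with complex IV, since the Ndufa4 protein is now placed there. Ndufb4b is a near-identical copy of Ndufb4, so the values of that pair are uncertain. Of the 13 subunits encoded by mitochondrial DNA, 0 were among the genes measured.

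The 12 expression arrays came from 4 preparations of untreated cells, 2 male and 2 female, called male 1, male 2, female 1 and female 2 below. Each preparation was a frozen pool of hepatocytes from 3 C57BL/6 mice, an inbred strain, whose age is not given in the labels. Spheroids of each preparation were sampled 1, 7 and 14 days after they formed, which gave 2 arrays for each sex at each of the 3 days. The question is how gene expression moves with time in culture and whether the sexes differ. The design has no fresh liver or flat culture among the samples used here.

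The respiratory chain carries electrons from food-derived NADH and succinate to oxygen. Complexes I and II take the electrons in, complex III passes them to cytochrome c, and complex IV hands them to oxygen. Complexes I, III and IV pump protons across the inner mitochondrial membrane, and complex V, the ATP synthase, lets the protons flow back to make ATP. Hepatocytes are rich in mitochondria and draw on this ATP for urea synthesis, glucose output and bile formation, and most subunits are made in every cell type, while a few exist as tissue-bound isoforms.

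Values are log2 levels, and a change is a difference of log2 levels. Differences were tested with limma over all 11861 genes, and a gene counted as passing when its p, adjusted by Benjamini-Hochberg, was under 0.05. Since each preparation pools its own animals, p-values measure how pools differ, not how single mice do. Array medians lay between 7.48 and 7.54 over all genes and between 9.38 and 9.58 over the 90 members. Replicate arrays of a sex and day had r = 0.984 to 0.990 across genes, a description only, since genes are not independent replicates. Of the 10 hepatocyte markers, 10 were measured and 9 reached 4.79 on every array. Albumin (Alb) stood between 12.71 and 12.78, near the highest value of the table (12.84), where a difference may be compressed. Of the members, 87 reached 4.79 on every array, which is the lowest maximum of any gene in the table and is taken here as the edge of the background. The exceptions were Ndufa4l2 (10 of 12 arrays), Cox6b2 (8 of 12) and Cox7a1 (1 of 12).

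Between day 1 and day 7 the respiratory chain as a whole stood slightly higher, by an amount that single genes could seldom carry past the test. The change was above 0 for 82 of the 90 members (91.1%), against 49.9% of all genes. Its median was 0.09 over the members and -0.0004 over all genes. In the 4 preparations taken alone, the median of the 90 changes was 0.08 in male 1, 0.07 in male 2, 0.07 in female 1 and 0.11 in female 2. Thus every pool showed a median above 0, and 68, 66, 69 and 80 of the 90 genes were higher in the respective pool. In spheroid RNA, fewer cells of a type and less RNA per cell cannot be told apart, and this holds for each value given here.

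**Figure D1:**
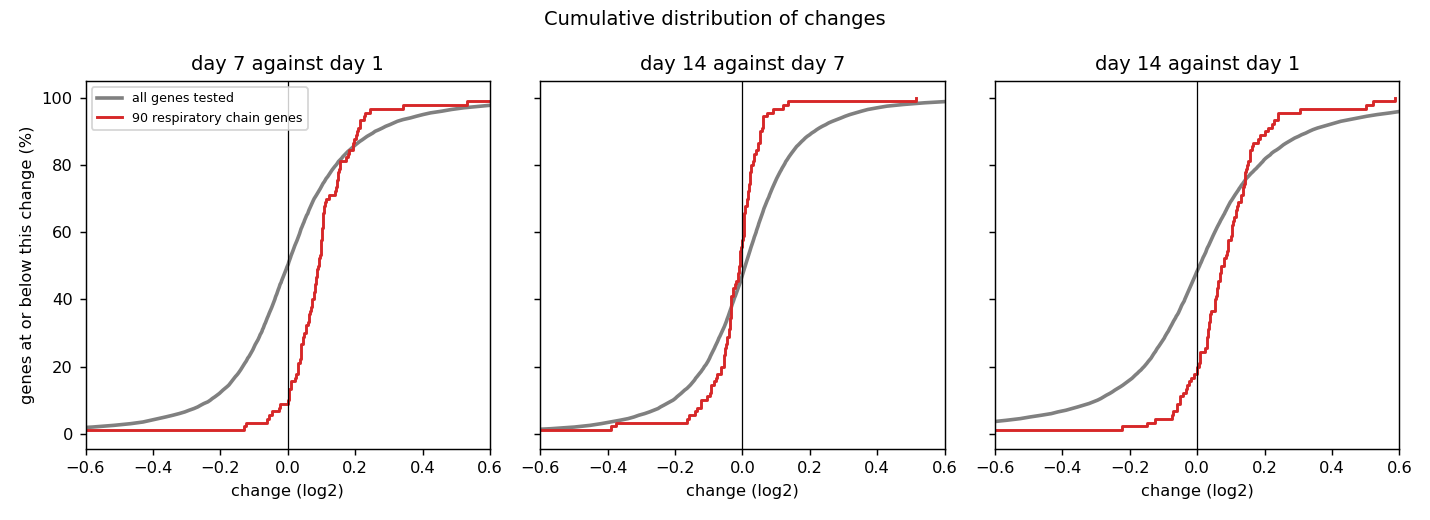
Cumulative share of genes (vertical axis, percent) at or below a given change (horizontal axis, log2), for the 90 respiratory chain genes (red) and all 11861 genes (grey) in each comparison of days; changes beyond -0.6 and 0.6 are not drawn. In both comparisons with day 1 the red curve lies to the right of the grey one through its middle, with medians of 0.09 and 0.08, while between days 7 and 14 it crosses 0 near its median of -0.01.

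Of the 90 members, 1 passed the test between day 1 and day 7 (limma, Benjamini-Hochberg), where 4.72% of all genes passed, 2.74% higher and 1.98% lower. The gene was Cox7a1, which was higher and which is in the table through 1 day 7 array, the 1 of 12 on which it reached 4.79. At an unadjusted p under 0.05 there were 19 members (21.1%), against 19.5% of all genes. Expression was higher at day 7 in each of the 4 preparations for 41 members (45.6%), against 15% of all genes, and lower in each for 2 members, Cox7a2l and Ndufa4l2, against 14.1%. The 4 day 7 values lay above the 4 day 1 values for 19 members (21.1%), against 5.24% of all genes, and below them for 0 members, against 5.19%. A shift of at least 0.5 in either direction was seen for 3 members, Cox7a1, Cox6b2 and Ndufa4l2, or 3.33%, against 5.95% of all genes. The respiratory chain genes were thus many with small differences of one sign, and few with large ones.

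Complex I, the NADH dehydrogenase, is the largest of the complexes. Of its 36 genes, 35 stood higher at day 7, with a median change of 0.10, and 0 passed the test. The largest difference was that of Ndufa9, an accessory subunit where the arm in the matrix meets the arm in the membrane. Its levels at day 1 were 8.92 in male 1, 8.91 in male 2, 8.80 in female 1 and 8.91 in female 2, and at day 7 they were 9.10, 9.03, 9.12 and 9.21 in the same order. The 4 values of each day did not overlap, and the change was 0.23 ± 0.06 (SE, limma adjusted p = 0.0684). Ndufb7, an accessory subunit of the membrane arm, was the 1 gene of complex I below its day 1 level, with a change of -0.13 ± 0.08 (limma adjusted p = 0.416). It was lower in 3 of the 4 preparations.

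Complex II, succinate dehydrogenase, is shared with the Krebs cycle and is the complex with no subunit from mitochondrial DNA. Its 4 genes were higher at day 7 in each of the 4 preparations, with a median change of 0.18, and 0 passed the test. Sdha, the flavoprotein that oxidises succinate, differed by 0.15 ± 0.06 (limma adjusted p = 0.201), and Sdhb, the iron-sulphur subunit, by 0.21 ± 0.07 (limma adjusted p = 0.147). The membrane anchors Sdhc and Sdhd differed by 0.21 ± 0.10 and 0.15 ± 0.05 (limma adjusted p = 0.275 and 0.157). For Sdha, Sdhb and Sdhd the day 7 values lay above the day 1 values without overlap, while those of Sdhc, which ran from 8.85 to 9.18 at day 1 and from 9.14 to 9.44 at day 7, overlapped.

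In complexes III and V the medians were 0.07 and 0.05 over the 4 preparations, and without 1 preparation they ran from 0.05 to 0.09 and from 0.03 to 0.08, which overlapped with 0.06 to 0.10 for complex IV. In complex III, the cytochrome bc1 complex, 8 of 9 genes were above 0 and 0 passed. Cyc1, its cytochrome c1, differed by 0.04 ± 0.07 and Uqcrfs1, its Rieske iron-sulphur protein, by 0.07 ± 0.08 (limma adjusted p = 0.818 and 0.71). The ends of the range were Uqcrh, the hinge protein, at 0.14 ± 0.07 and Uqcr11 at -0.03 ± 0.08 (limma adjusted p = 0.284 and 0.913). In complex V, 16 of 17 genes were above 0 and 0 passed. Its range ran from Atp5e, the epsilon subunit, at -0.06 ± 0.12, to Atp5k, a small membrane subunit, at 0.19 ± 0.11 (limma adjusted p = 0.835 and 0.381). The 2 genes that carry the catalytic head, Atp5a1 and Atp5b, both differed by 0.04 ± 0.05 (limma adjusted p = 0.741 and 0.784), and were named after their values were seen.

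**Figure D2:**
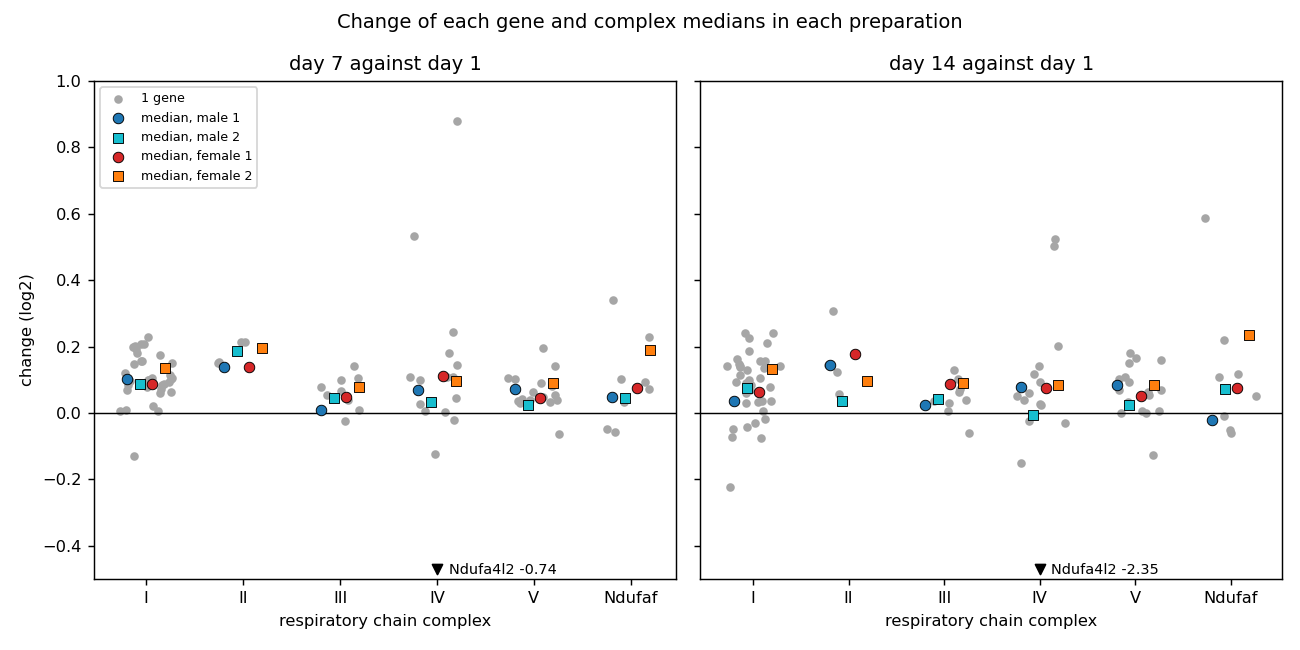
Change on the log2 scale (vertical axis) of each of the 90 genes, averaged over the 4 preparations (grey points), and the median change of each complex in each preparation (coloured symbols), for day 7 against day 1 (left) and day 14 against day 1 (right). Ndufa4l2 lies below the axis, at -0.74 and -2.35, and is drawn as a triangle. The coloured medians of complex II at day 7 lie between 0.14 and 0.20, and those of complex V stay between 0.02 and 0.09.

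Complex IV, cytochrome c oxidase, had the widest spread and its ends were genes other than the isoforms that liver uses. Of its 16 genes, 13 were above 0, with a median of 0.10, and 1 passed. Among the liver isoforms, Cox4i1 differed by -0.02 ± 0.05, Cox6a1 by 0.03 ± 0.05 and Cox8a by 0.00 ± 0.07 (limma adjusted p = 0.861, 0.848 and 0.99). Cox5a and Cox5b were each higher by 0.11 ± 0.06, Cox6b1 by 0.10 ± 0.05 and Cox7a2 by 0.14 ± 0.08 (limma adjusted p = 0.36, 0.378, 0.36 and 0.348). Ndufa4 was higher by 0.18 ± 0.06 without overlap of the 4 values of each day (limma adjusted p = 0.133).

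Cox7a1, the isoform of subunit VIIa that heart and skeletal muscle use, had higher values at day 7, nearly all under the edge of the background. Its levels at day 1 were 3.80 in male 1, 3.77 in male 2, 3.64 in female 1 and 3.71 in female 2, and at day 7 they were 4.08, 4.47, 5.28 and 4.60. The day 7 values lay above all day 1 values, and female 1 at day 7 was the 1 array above 4.79. The other 11 values, those of day 1 included, were under the edge of the background. The gene thus entered through the day on which it was high, so its test cannot show a rise and no fold is given. The measured difference was 0.88 ± 0.17 on the log2 scale (limma adjusted p = 0.0279), and a filter on mean level leaves the gene out. Without any 1 of the 4 preparations it missed the threshold, with limma adjusted p between 0.0778 and 0.186. At day 14 the levels were 4.09, 4.62, 4.04 and 4.18.

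Cox6b2, the testis isoform of subunit VIb, stood at 4.51 in male 1, 4.82 in male 2, 4.62 in female 1 and 4.36 in female 2 at day 1, and at 4.56, 5.26, 5.28 and 5.35 at day 7. The male 1 value hardly moved, and the other 3 day 7 values lay above all day 1 values. The change was 0.53 ± 0.15 (limma adjusted p = 0.0982), and with each preparation as a block the adjusted p was 0.0356. The day 1 values of male 1, female 1 and female 2 and the day 7 value of male 1 lay under 4.79. The size of the difference is therefore uncertain. Cox6a2, the muscle isoform of subunit VIa, ran from 5.22 to 6.44 at day 1 and from 5.65 to 6.31 at day 7, with a change of 0.24 ± 0.29 (limma adjusted p = 0.717). It was higher in male 1 and female 2 and lower in male 2 and female 1. Cox7a2l, which joins complexes III and IV into supercomplexes and which C57BL/6 mice carry in a shortened form, was lower in each preparation, with values from -0.19 in female 2 to -0.04 in male 2 and a change of -0.12 ± 0.09 (limma adjusted p = 0.519).

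The 8 Ndufaf genes had a median change of 0.08 at day 7 (0.04 to 0.09 without 1 preparation), 6 were above 0 and 0 passed. The ends of the range were Ndufaf6 at 0.34 ± 0.11, which was higher in each preparation without overlap, and Ndufaf2 at -0.06 ± 0.09 (limma adjusted p = 0.129 and 0.798). At day 14 Ndufaf6 lay back at 6.36 to 6.65, against 6.34 to 6.66 at day 1.

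**Figure D3:**
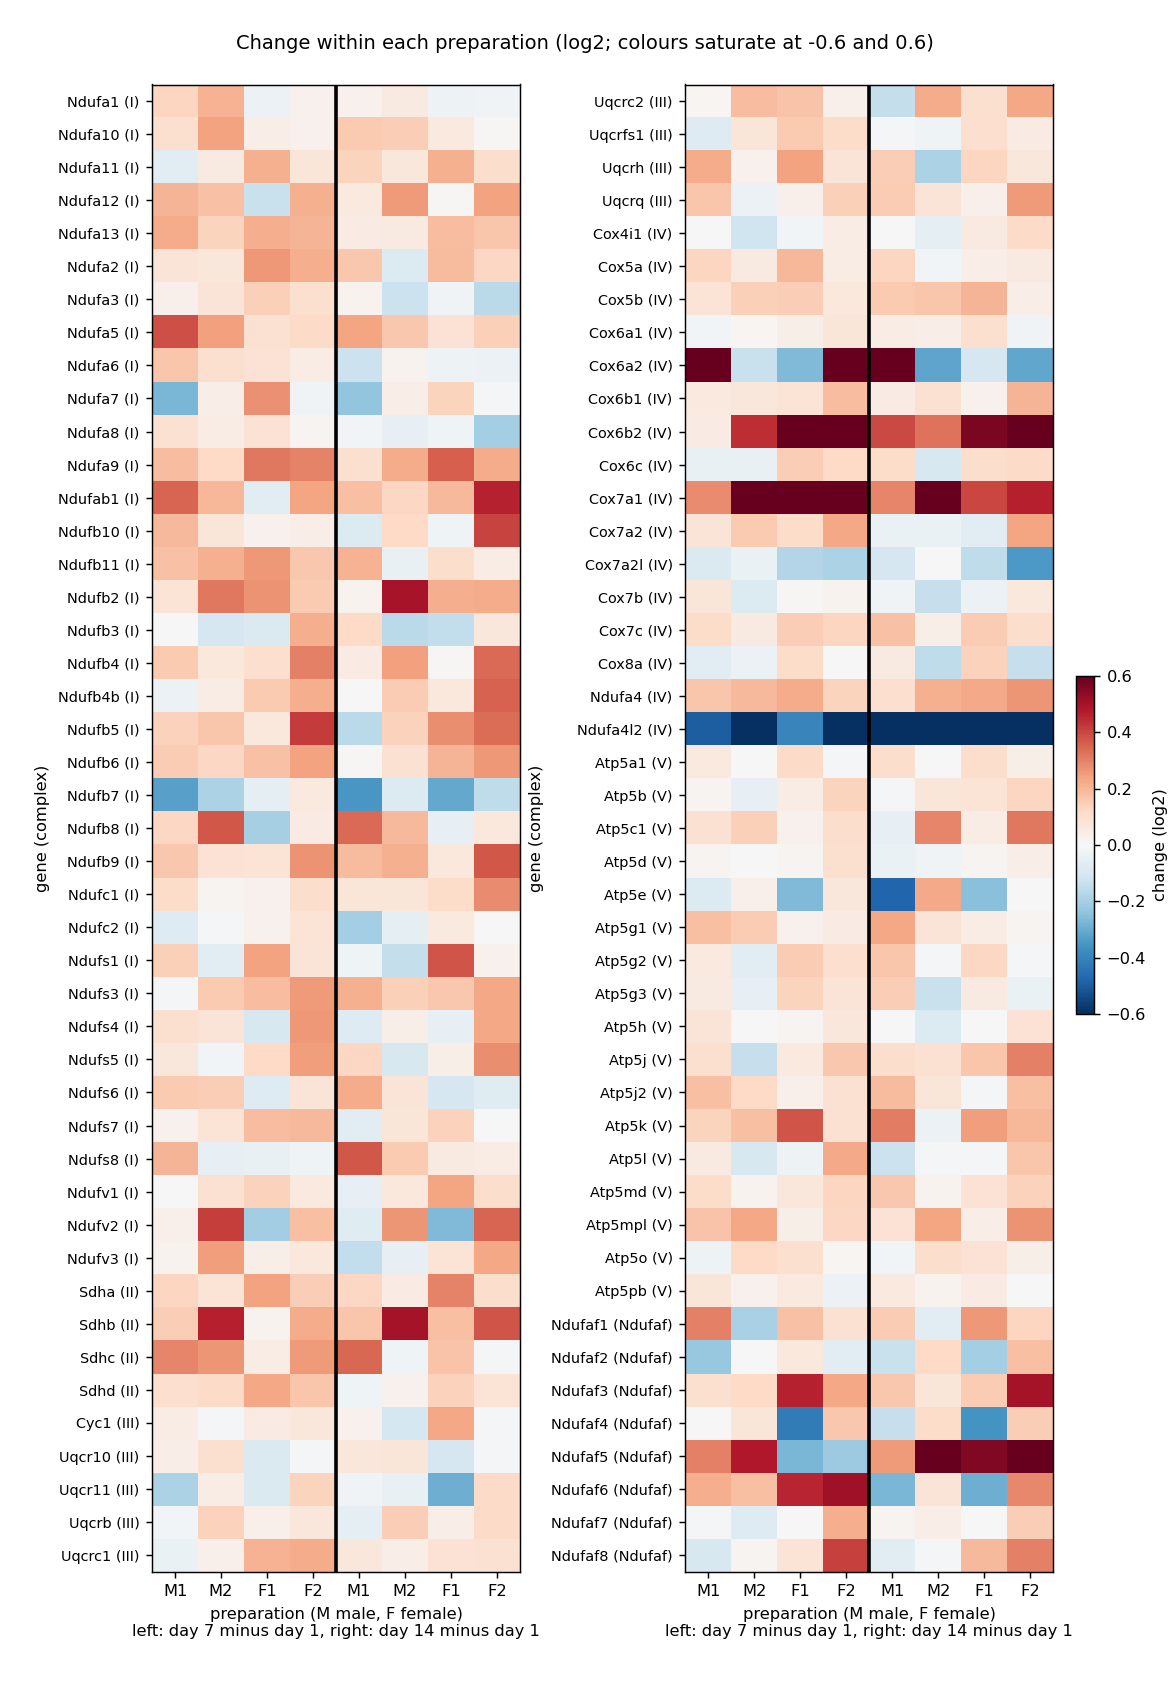
Change of each of the 90 genes in each preparation, day 7 minus day 1 in the left 4 columns of each panel and day 14 minus day 1 in the right 4; colour gives the log2 change from -0.6 (blue) to 0.6 (red) and larger changes take the end colours. Pale red prevails through complexes I, II and V, and the saturated cells belong mainly to Cox6a2, Cox6b2, Cox7a1, Ndufa4l2 and Ndufaf5.

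From day 7 to day 14 most differences in the chain were small, with a median slightly below 0 in each preparation. The median of the 90 changes was -0.01 in male 1, -0.02 in male 2, -0.01 in female 1 and -0.01 in female 2. In complex I it was -0.07, -0.05, -0.02 and -0.01 in the same order. Of the 90 members 0 passed the test (limma), where 0.489% of all genes passed, and 5 had an unadjusted p under 0.05 (5.56%, against 13.7% of all genes). The median change was -0.01 over the members and 0.01 over all genes, and 38 of 90 were above 0 (42.2%, against 52.8%). Medians of the complexes lay between -0.05 in complex II and 0.00 in complex V. The largest difference was that of Ndufa4l2, at -1.62 ± 0.42 (limma adjusted p = 0.147), which passed when preparation was a block (adjusted p = 0.00959). Ndufaf5 stood 0.51 ± 0.09 higher (limma adjusted p = 0.0631), and Ndufaf6 differed by -0.39 ± 0.11 (limma adjusted p = 0.169) with its 4 day 14 values below the 4 of day 7, as for 2.35% of all genes.

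Over the whole culture, from day 1 to day 14, 4 of the 90 members passed the test (4.44%), where 14.4% of all genes passed. Ndufaf5, Sdhb and Ndufa9 rose (3.33%, against 7.59% of all genes) and Ndufa4l2 fell (1.11%, against 6.8%). The change was above 0 for 73 members (81.1%, against 51.5% of all genes), and its median was 0.08, against 0.01 over all genes. The median of the 90 changes was 0.05 in male 1, 0.05 in male 2, 0.07 in female 1 and 0.12 in female 2. Expression was higher in each of the 4 preparations for 31 members (34.4%, against 18.1%), and the day 14 values lay above the day 1 values without overlap for 12 (13.3%, against 8.25%) and below them for 2, Ndufa4l2 and Ndufb7 (2.22%, against 7.57%). By complex, 29 of 36 genes of complex I, 4 of 4 of complex II, 8 of 9 of complex III, 12 of 16 of complex IV and 15 of 17 of complex V were above 0, with medians of 0.10, 0.13, 0.04, 0.06 and 0.07. Without 1 preparation the medians ran from 0.09 to 0.11, 0.09 to 0.19, 0.02 to 0.05, 0.02 to 0.08 and 0.05 to 0.08 in that order of complexes. The 2 comparisons with day 1 share their day 1 arrays.

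Ndufa4l2, a relative of Ndufa4 that cells induce through hypoxia-inducible factors when oxygen is low, fell most. Its levels at day 1 were 6.42 in male 1, 7.60 in male 2, 7.77 in female 1 and 7.10 in female 2. At day 7 they were 5.92, 6.64, 7.37 and 6.00, and at day 14 they were 3.64, 4.43, 6.22 and 5.17. Each preparation was lower at each later day, the day 14 values lay below all day 1 values, and both male pools ended under 4.79, where a fall may be understated. The change from day 1 to day 14 was -2.35 ± 0.42, or 5.12-fold lower (limma adjusted p = 0.00783). The call was lost without male 1 (adjusted p = 0.0591) and without male 2 (adjusted p = 0.0652), while with the preparation as a block the adjusted p was 0.000285, and the block also called the day 7 value of -0.74 ± 0.42 (adjusted p = 0.0305, against 0.388 without it).

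Markers of other liver cells moved in both directions between day 1 and day 14. The Kupffer cell and macrophage list had a median change of 1.07, with 9 of 10 genes above 0. The cholangiocyte and progenitor list had one of 0.49, with 2 of 4 genes above 0. The 12 stellate cell and fibroblast markers were all measured, and 8 of them fell between day 1 and day 14 and 0 rose (limma), with a median change of -1.50. Their summed level on the linear scale was 3210 to 3640 at day 1 and 1060 to 2760 at day 7. At day 14 it was 413 in male 1, 895 in male 2, 2700 in female 1 and 2670 in female 2. Of 10 endothelial markers 6 were measured, of which 3 fell and 0 rose, or 4 were called with the block (median -1.26), and their sum went from 269 to 505 at day 1 to 89.3, 111, 295 and 176 at day 14 in the same order of preparations. Between these days 6.8% of all genes fell and 7.59% rose. Of the stellate cell markers 3 of 12, and of the endothelial markers 1 of 6, reached 4.79 on every array. In the Kupffer cell and macrophage list it was 1 of 10, and in the cholangiocyte and progenitor list 2 of 4. The part of these cells in the fall of Ndufa4l2 was not tested.

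Ndufaf5, which modifies the Ndufs7 subunit while complex I is being put together, rose. Its levels were 5.36 in male 1, 5.08 in male 2, 5.46 in female 1 and 5.49 in female 2 at day 1. They were 5.66, 5.56, 5.19 and 5.28 at day 7, and 5.61, 5.94, 6.02 and 6.17 at day 14. The day 14 values lay above all day 1 values, while at day 7 the male pools were higher than at day 1 and the female pools lower. The change from day 1 to day 14 was 0.59 ± 0.09, or 1.5-fold (limma adjusted p = 0.00515). The sex difference in its day 7 change, male minus female, was 0.64 ± 0.19, and it did not pass (limma adjusted p = 0.831). Without male 1 the day 14 call stood (adjusted p = 0.0189), and without male 2, female 1 or female 2 it missed the threshold (0.0559 to 0.0732).

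Sdhb rose by day 14. It stood at 9.65 in male 1, 9.46 in male 2, 9.65 in female 1 and 9.54 in female 2 at day 1, and at 9.81, 9.96, 9.83 and 9.91 at day 14, with no overlap. The change was 0.31 ± 0.07, or 1.24-fold (limma adjusted p = 0.0251). The call was lost under the block (adjusted p = 0.0516) and without any 1 preparation (0.0782 to 0.221). The other genes of complex II differed by 0.14 ± 0.06 (Sdha), 0.12 ± 0.10 (Sdhc) and 0.06 ± 0.05 (Sdhd), with limma adjusted p of 0.14, 0.47 and 0.554.

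Ndufa9 also rose by day 14, when its levels were 9.02, 9.13, 9.16 and 9.14, above all 4 values of day 1. The change of 0.23 ± 0.06, or 1.17-fold (limma adjusted p = 0.0366), was close to the day 7 value. The call was lost with the block (adjusted p = 0.0596) and without any 1 preparation (0.122 to 0.261). Ndufa4 stood 0.20 ± 0.06 higher at day 14 (limma adjusted p = 0.0526), with levels of 10.80 to 10.92 at day 1 and 10.97 to 11.19 at day 14. Cox6b2 was 0.52 ± 0.15 higher (limma adjusted p = 0.0553, and 0.0176 with the block). Ndufab1, the mitochondrial acyl carrier protein, had the largest value in complex I, 0.24 ± 0.07 (limma adjusted p = 0.0646), and Ndufb7 the lowest, -0.22 ± 0.08 (limma adjusted p = 0.0963), with its 4 day 14 values below the 4 of day 1.

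**Figure D4:**
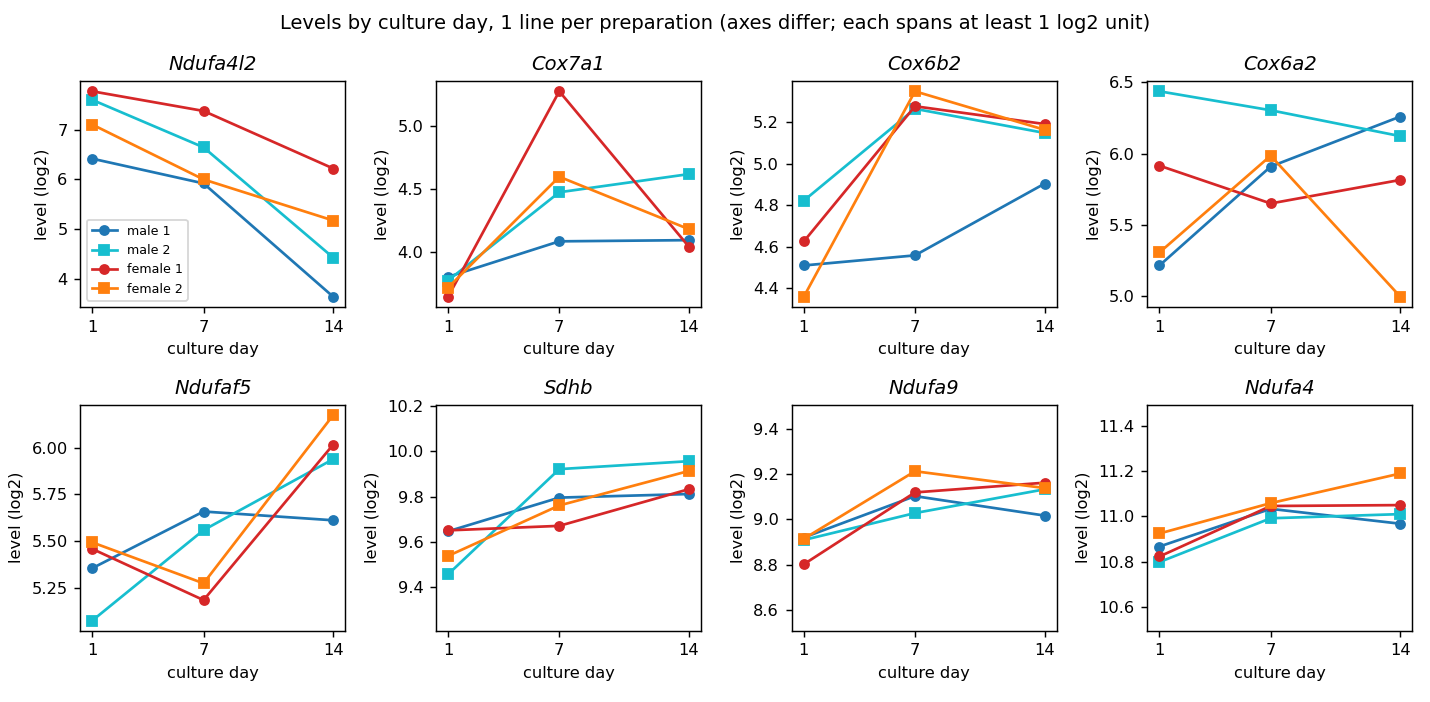
Log2 level (vertical axis, with its own range in each panel) by culture day (horizontal axis) of 8 genes, with 1 line per preparation (male blue, female red or orange). Ndufa4l2 descends in each preparation, from 6.42 to 7.77 at day 1 to 3.64 to 6.22 at day 14. The Cox7a1 values are highest at day 7 in both female pools, but nearly all lie under the edge of the background, so no rise is read from them. The lines of Sdhb, Ndufa9 and Ndufa4 each span less than 1 log2 unit.

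The remaining named genes did not pass between day 1 and day 14. Cox7a1 was 0.50 ± 0.17 above day 1 (limma adjusted p = 0.0876), with all values of both days under 4.79, so no rise is read from it. Cox4i1, Cox5a, Cox5b, Cox6a1 and Cox6b1 differed by 0.03, 0.05, 0.14, 0.04 and 0.09, and Cox6a2, Cox7a2, Cox7a2l and Cox8a by 0.08, 0.02, -0.15 and -0.02, with limma adjusted p between 0.164 and 0.894. The sign of the Cox8a value turned when arrays were quantile normalized again. In complex III, Uqcrq was 0.13 ± 0.07 higher and Uqcr11 differed by -0.06 ± 0.08, with Cyc1 at 0.04 and Uqcrfs1 at 0.03 (limma adjusted p between 0.293 and 0.85). In complex V, Atp5k differed by 0.18 ± 0.11 and Atp5e by -0.13 ± 0.12 (limma adjusted p = 0.33 and 0.561). Among the Ndufaf genes, whose median was 0.08, the lowest was Ndufaf4 at -0.06 ± 0.10 (limma adjusted p = 0.763).

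The start regions of the 3 genes that rose by day 14 are shown because each holds a core motif of a factor known to act on genes of mitochondria. NRF1 and the ETS protein GABPA (also called NRF2) are classical activators of respiratory chain genes, and YY1 acts on mitochondrial genes with the coactivator PGC-1 alpha. Sequences are from RefSeq (GRCm38.p6), 5′ to 3′ on the strand of the gene, with the motif in capitals. The Ndufaf5 stretch (chr2:140170576-140170675, plus strand) has the NRF1 core at bases 17 to 26 after the annotated start, the Sdhb stretch (chr4:140961201-140961300, plus strand) the ETS core at bases 7 to 13, and the Ndufa9 stretch (chr6:126849101-126849130, minus strand) the YY1 core at bases 30 to 37.
Ndufaf5: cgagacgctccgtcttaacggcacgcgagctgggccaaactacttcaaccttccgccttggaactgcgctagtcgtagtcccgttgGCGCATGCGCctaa
Sdhb: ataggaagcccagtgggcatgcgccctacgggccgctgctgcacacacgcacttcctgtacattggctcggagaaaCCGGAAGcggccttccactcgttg
Ndufa9: gaggcattgtgggagAAGATGGCggccgcc

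Windows of 300 bases, from 250 before to 50 after the annotated start, were matched for 75 of the 90 members and for 9644 of the genes measured, and 5 motifs were searched on both strands. The NRF1 core (GCGCA, any base, then GCGC) was found in 19 of the 75 (25.3%, against 11.3% of genes measured), of which 7 were in complex I and 6 in complex V. The ETS core CCGGAAG was in 19 (25.3%, against 19.4%), the YY1 core AAGATGGC in 11 (14.7%, against 5.08%), the CRE TGACGTCA in 4 (5.33%, against 3.5%) and the ERR core TCAAGGTCA in 2 (2.67%, against 0.394%). Over all 32851 windows the shares were 4.6%, 8.86%, 2.75%, 1.79% and 0.423%. A match is a description of letters and says nothing of binding.

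Between the sexes, the members leaned to higher levels in the female pools by amounts that did not pass for any gene. Each preparation was averaged over its 3 days, which left 2 male against 2 female values. The difference, male minus female, was below 0 for 80 of the 90 members (88.9%), against 45.2% of all genes, with a median of -0.06 against 0.02. Both female pools lay above both male pools for 41 members (45.6%), against 24% of all genes, and both male pools above both female pools for 2 (2.22%, against 29.6%). Of the members 0 passed (limma), where 0.177% of all genes passed, and 4 had an unadjusted p under 0.05 (4.44%, against 19.8%). These were Ndufa8, Ndufa13, Ndufa3 and Ndufb2 of complex I, with differences of -0.19, -0.19, -0.16 and -0.17 (limma adjusted p between 0.232 and 0.246), named after their values were seen. At day 1 Ndufa8 stood at 10.24 and 10.36 in the male pools and at 10.51 and 10.55 in the female pools. Medians by complex ran from -0.10 in complex III to -0.04 in complex V, and the 8 Ndufaf genes had -0.02.

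Beside this, the hepatocyte markers had a median sex difference of -0.11, the stellate cell markers of -0.72, the endothelial markers of -0.78 and the Kupffer cell markers of -0.23, with 0 members of each list past the test. Their part in the difference of the respiratory chain genes was not tested, and each sex was represented by 2 pools. The change over days was not shown to differ between the sexes. Of the 90 members 0 passed for the sex difference in the day 7 change and 0 in the day 14 change (limma), as did 0% of all genes in each. At an unadjusted p under 0.05 there was 1 member (Ndufaf5) and 0 members, against 4.76% and 6.87% of all genes.

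Lists of genes that work with the respiratory chain held 3 genes that rose by day 14: Idh2, Suclg1 and Etfdh. Of all genes 7.59% rose by day 14 and 2.74% by day 7. The 3 genes were 2 of 13 Krebs cycle enzymes and 1 of 10 genes for electron carriers and ATP export. By day 14, 0 of 37 further assembly factors and 0 of 14 regulators of mitochondrial biogenesis rose. The count of 3 is not read as a trait of these lists. Of 40 further assembly factors 37 were measured and 0 passed in any comparison of days, with medians of 0.08 at day 7 and 0.08 at day 14 against day 1. The largest value among them at day 14 was that of Surf1, a complex IV assembly factor, at 0.30 ± 0.09 (limma adjusted p = 0.0526, and 0.0205 with the block). Of 14 Krebs cycle enzymes 13 were measured, with medians of 0.05 and 0.08. Idh2, the NADP-dependent isocitrate dehydrogenase of mitochondria, rose by 0.47 ± 0.06 by day 7 and by 0.72 ± 0.06 by day 14 (limma adjusted p = 0.00584 and 0.00028), in 4 of 4 preparations each time. Suclg1, a subunit of succinyl-CoA ligase, rose by 0.32 ± 0.06 by day 14 (limma adjusted p = 0.0116), and the other 11 enzymes did not pass.

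Of 12 genes for electron carriers and ATP export 10 were measured, and Etfdh, which feeds electrons from fatty acid oxidation into ubiquinone, was the 1 that rose, by 0.30 ± 0.07 by day 7 and 0.33 ± 0.07 by day 14 (limma adjusted p = 0.044 and 0.015). With the block the day 7 call was lost (adjusted p = 0.0554), and Slc25a13, the aspartate-glutamate carrier, was called lower at day 14 (-0.25, adjusted p = 0.0423, against 0.123 without it). Of 15 regulators of mitochondrial biogenesis 14 were measured and 0 passed, with medians of 0.01 at day 7 and -0.06 at day 14 against day 1. Pprc1, a PGC-1 related coactivator, had the largest value, -0.38 ± 0.11 (limma adjusted p = 0.0504, and 0.0488 with the block). Between day 7 and day 14, 0 genes of these 4 lists passed.

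The cell type lists set the frame for these differences. The 10 hepatocyte markers had medians of 0.07 at day 7 and 0.02 at day 14 against day 1, 0 and 1 (Asgr2) rose, and their summed linear level, which the brightest markers dominate, lay between 29900 and 34100 at each of the 3 days. Asgr2, a part of the asialoglycoprotein receptor, rose by 0.46 ± 0.11 by day 14 (limma adjusted p = 0.0226). Cyp2e1, a cytochrome P450, differed by -1.16 ± 0.66 (limma adjusted p = 0.301, and 0.0502 with the block) and was lower in 3 of the 4 preparations. Of 12 Kupffer cell and macrophage markers 10 were measured, with medians of 0.96 and 1.07. At days 7 and 14, 0 and 1 were called higher, or 4 and 8 were called with the block. Of these 10 markers 1 reached 4.79 on every array, so the size of the differences is uncertain. Adgre1 reached 4.79 only in female 1, at days 7 and 14, so its test cannot show a rise. The sum of the 10 markers was 183 to 461 at day 1, 402 to 1230 at day 7 and 409 to 2020 at day 14, the highest in female 1. Stellate cell markers had a median of -0.89 at day 7, when 3 fell (4 called with the block), and endothelial markers one of -0.40, when 0 passed (2 with the block). Of 7 cholangiocyte and progenitor markers 4 were measured, with medians of 0.19 and 0.49, and 2 of the 4 were above 0 each time. Krt7 and Sox9, the brighter ones, were lower than at day 1 in each preparation at both later days. The summed level, which they dominate, was also lower in each preparation. It was 1300 to 1750 at day 1, 1020 to 1470 at day 7 and 1040 to 1540 at day 14. Krt19 had measured differences of 1.58 ± 0.16 at day 7 and 1.81 ± 0.16 at day 14 against day 1 (limma adjusted p = 0.00255 and 0.00035). Its day 1 values all lay under 4.79 and its later values all above it. Epcam differed by 1.19 ± 0.21 at day 14 (limma adjusted p = 0.00776). Its values lay under 4.79 on every array except male 2 at day 14. Both genes thus entered through later days on which they were high, so their tests cannot show a rise. With the block 2 of the 4 markers were called at day 7 and 3 at day 14. Of 6 lymphocyte markers 0 were measured. The part of these cells in the small differences of the respiratory chain genes was not tested.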

How the data were processed

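Total RNA of the spheroids was read on 12 Affymetrix arrays that carry probe sets for genes, and the deposited log2 values were used without change. The submitters' processing notes name RMA (background correction, normalization and probe summary), Transcriptome Analysis Console 4.0 and Partek 7.0, with no order. The array annotation release is not given in the sources used here.

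Of 13081 probe sets, 11889 had 1 gene symbol, 1192 had none and 0 had several. Where a symbol had several probe sets (19 symbols), that with the highest mean stood for it, and 11861 genes resulted. Every probe set reached 4.79 on at least 1 array, so genes near the background entered through a high array. The highest value was 12.84, and RMA compresses values at both ends.

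Limma 3.58.1 (R 4.3.3, with version 1.17.8 of data.table) fitted a mean for every combination of sex and day (6), with eBayes without trend. A day comparison is averaged over the sexes. Each ± on a change is the model's standard error, whose median was 0.0661 over the members (0.0504 to 0.42) and 0.0946 over all genes. All tests were two-sided. The fit was tested first on simulated data for day 14 against day 1, with 50 genes for each set change. It called 52% of set changes of 0.5 and 56% of those of -0.5, and 86% and 92% of those of 1 and -1. Of the unchanged genes 11 were called. No smaller change and no difference between preparations was simulated, so the test does not cover the small changes of most members. Precision is limited by how few arrays there are.

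The labels pair the days, since the same pools were sampled at each. The deviations of a preparation from its sex mean correlated across genes between days at r = 0.036 to 0.324 (6 values, not independent over genes). The fit with the preparation as a block is given beside the members and lists whose calls it changes.

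Named were, in each complex and among the Ndufaf genes, up to 3 passing genes with the largest rise and fall (with no passing gene, the single largest change), the lowest and highest change, and the isoform genes of complex IV, the Sdh genes, Cyc1 and Uqcrfs1. The members and lists were chosen with earlier results of these data known. Promoter windows and names came from RefSeq (GRCm38.p6), and 0 per-sample columns of the table were left out.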

Additional observations from a re-analysis of the deposited data

Results flagged for a closer look

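Of 120 sets of 4 arrays (the named genes and the complex medians at each day), 7 had 1 array far from the other 3 by Dixon's gap at the 95% level, and chance marks about 1 in 20 such sets. In Cox6b2, male 1 was low at day 7 (4.56, others 5.26 to 5.35) and at day 14 (4.90, others 5.15 to 5.19), where values lie near the background. At day 1, male 1 was low in Cox5a (9.48, others 9.58 to 9.60). At day 1, female 1 was high in Cox6b1 (9.95, others 9.88 to 9.89), high in Ndufaf4 (8.46, others 8.19 to 8.22) and low in Ndufa9 (8.80, others 8.91 to 8.92). At day 14, female 1 was low in Ndufb7 (8.06, others 8.20 to 8.21).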

How the results depend on the processing

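The median change of the 90 members kept its sign under each alternative, with 0.08 to 0.10 for day 7 and 0.06 to 0.08 for day 14 against day 1 when 1 preparation was left out, and 76 to 83 and 67 to 76 members above 0. For sex over all days 67 to 86 members lay below 0. Between day 1 and day 7, members passing numbered 1 in the reported fit, 3 with the preparation as a block (replicate block), 0 with a filter on mean level (which leaves out Cox7a1), 5 with a trended and robust spread and 0 without any 1 preparation. From day 7 to day 14 they numbered 1 with the block (Ndufa4l2) and 1 with the filter (Ndufaf5). Beside those given in the report, the block changed no call among the members. From day 1 to day 14 they numbered 4 in the reported fit, 3 with the block and 6 with the filter. After quantile normalization they numbered 6, and with the trended spread 11. Ndufa4 passed with the filter, after quantile normalization and with the trended spread. Ndufb9 passed with the last 2 of these, and in the reported fit it differed by 0.21 ± 0.06 (limma adjusted p = 0.0639). Over all genes, calls came to 956 (day 7 against day 1), 309 (day 14 against day 7) and 974 (sex over all days) with the trended spread, where 3 members (Ndufa3, Ndufa8 and Ndufa13) passed for sex. They came to 40 to 75, 0 to 8 and 494 to 826 in the 3 comparisons of days without 1 preparation, and 3 to 26 for sex. For day 14 against day 7 they came to 101 with the block and 96 with the filter, and for sex to 58 with the filter. For the sex difference in the day 14 change they came to 1 with the block, 14 with the trended spread and up to 17 without 1 preparation.

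Small medians moved: between days 7 and 14 complex V had 0.0131 after quantile normalization and, without 1 preparation, -0.0072 to 0.0131, complex III -0.0317 to 0.0063 and complex IV -0.0324 to 0.0093. At day 7, complex IV had 0.0621 to 0.0951. Among single genes that did not pass, Cox8a turned to 0.0021 at day 14 after quantile normalization. Leaving out 1 preparation turned the sign of these genes. The range from day 1 to day 14 was -0.3017 to 0.0507 for Atp5e, -0.2599 to 0.4195 for Cox6a2, -0.0544 to 0.0991 for Cox7a2, -0.0935 to 0.0442 for Cox8a, -0.026 to 0.0968 for Cyc1, -0.1852 to 0.0664 for Ndufaf4, and -0.162 to 0.0423 for Uqcr11. From day 1 to day 7 it was -0.1467 to 0.0208 for Atp5e, -0.0534 to 0.0077 for Cox4i1, -0.0266 to 0.0313 for Cox8a, -0.114 to 6e-04 for Ndufaf2 and -0.0839 to 0.034 for Uqcr11, and from day 7 to day 14 -0.2106 to 0.0855 for Atp5e. The causes were not tested.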
